A study of Mus musculus with 6 samples.

Results

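The genes described here are a set of transcripts that mammalian cells raise when oxygen is low, read in cultured mouse stem and progenitor cells of which 1 kind was grown in 5% oxygen. The set was chosen by gene name: Pdk1, Ddit4, Adm, P4ha2 and Bhlhe40, and, where the array had a probe for them, Vegfa, Bnip3, Egln3, Car9 and Ndrg1. Of these 10 genes, 8 had a matched probe, and Vegfa and Ndrg1 are not analysed here. The 8 genes were measured by 9 probes of 41006 on the array, since Bhlhe40 had a pair of probes, and they were 8 of 12323 genes that could be named. The array measured RNA by the brightness of 60-base oligonucleotide probes, and each value below is the log2 ratio of the sample to a common reference unless it is called a signal.

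The cells at 5% oxygen were multipotent adult progenitor cells (MAPC), a line grown out of mouse bone marrow, and they were set beside embryonic stem cells (ESC) and neurospheres (NS), with 2 arrays for each kind. The MAPC were taken as a single clone, which the labels call high in Oct4, so the spread between their arrays is not a spread between clones. The description of both arrays gives clone number 2, while their titles read mMAPC-1. Marrow cells were cultured for 4 weeks, CD45+ and Ter119+ cells were then removed, and the rest was seeded at 10 cells per well. The clone had gone through over 80 population doublings in low-glucose medium with 2% serum at 5% oxygen, 6% CO2 and 37 °C. Its medium also held the growth factors EGF and PDGF-BB and leukemia inhibitory factor (LIF). The ESC were C57BL/6 cells kept in high-glucose medium with 15% serum and LIF on irradiated embryonic fibroblasts, and the feeders were left out of the last plating before RNA extraction. The NS, spheres of neural progenitors that float in the medium, were grown from forebrain cells of C57BL/6 embryos (E11.5) with bFGF and EGF at 20 ng/mL. For the ESC and NS cultures no oxygen level is stated in the sources used here. Cell type, medium and growth factors differed between MAPC and the other cultures, and oxygen is known for MAPC alone, so that the effects of these conditions cannot be told apart. The reference, labelled with Cy5 on every array, was RNA pooled from 11 mouse cell lines, and samples carried Cy3 throughout.

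As background, the response to low oxygen runs through the hypoxia-inducible factors (HIF), transcription factors made of an alpha subunit, such as the products of Hif1a and Epas1, and a partner encoded by Arnt. In ample oxygen, prolyl hydroxylases encoded by Egln1, Egln2 and Egln3 mark the alpha subunit for destruction through the product of Vhl, and in low oxygen the subunit persists and enters the nucleus. There it binds a short DNA core, ACGTG or GCGTG, near genes that cut oxygen use, raise glycolysis, bring in blood vessels and remodel the matrix. HIF activity is set mainly at the protein level, which these arrays did not measure. Stem cells of the bone marrow are known to live in a niche of low oxygen.

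On the arrays, 6 of the 8 measured genes (Pdk1, Ddit4, Adm, Egln3, Bnip3 and Bhlhe40) were lower in MAPC than in ESC, P4ha2 was higher, and Car9 did not pass the test. Against NS the same 6 genes were lower, P4ha2 was again higher and Car9 again did not pass. The median difference over the 8 genes was -1.74 for MAPC minus ESC and -2.84 for MAPC minus NS, where the median over all probes tested was 0.01 and 0.03. A probe was called when limma's adjusted p was under 0.05. That threshold was passed by 38.5% of all probes for MAPC minus ESC (16.3% higher and 22.2% lower) and by 44.2% for MAPC minus NS (21.8% higher and 22.4% lower). Among the named genes the shares called were higher, 50.4% for MAPC minus ESC and 55.1% for MAPC minus NS. Calls with a difference of at least 2-fold were fewer: 8.56% of probes for MAPC minus ESC (2.99% higher and 5.57% lower) and 11.4% for MAPC minus NS (4.52% higher and 6.84% lower). Of the members, 5 were lower and 1 was higher by at least 2-fold in MAPC than in ESC, and 6 were lower and 1 was higher than in NS. The contrasts against ESC and NS share the MAPC arrays and are not separate evidence of a direction. The members were chosen with results of these arrays known, so the counts describe the genes and are no test of the set. The labels call the arrays of a kind biological replicates without saying what was separate about them. The p-values therefore rest on the spread between these arrays, pooled over the kinds of cell and moderated over all probes. For Pdk1, NS gave no such spread, since the other NS spot was marked as an outlier. The precision is limited by the number of arrays.

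**Figure D1:**
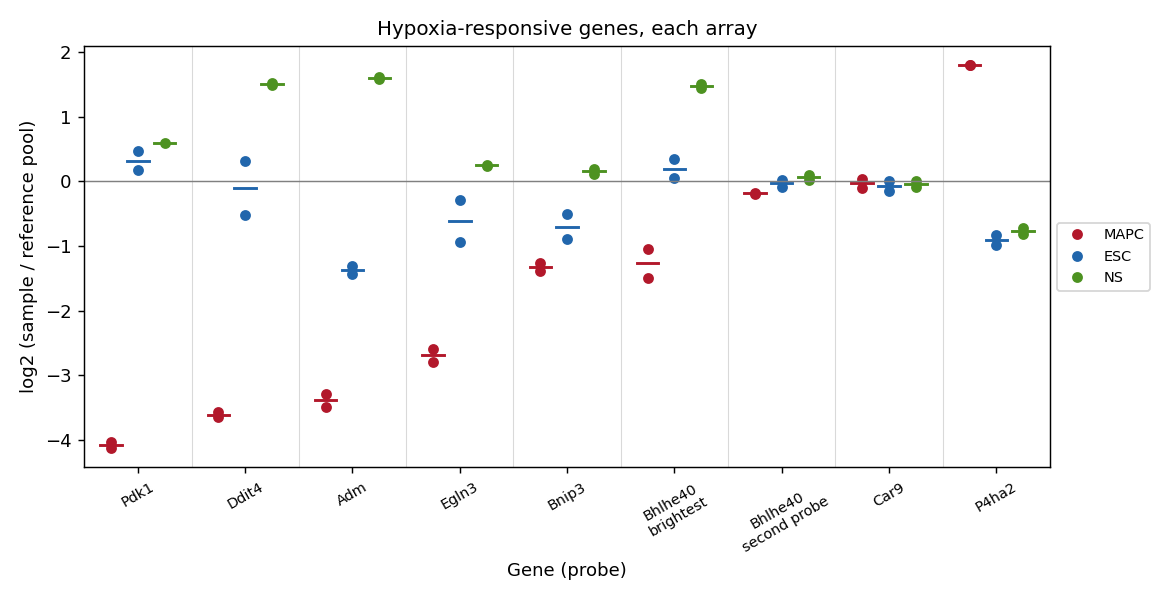
Log2 ratio of sample to reference pool (vertical axis) for each member probe (horizontal axis) on every array, with MAPC left of ESC and NS in each column. Points are arrays and short lines are group means; Pdk1 has 1 NS point because the other spot was marked as an outlier. The MAPC points lie below those of both other kinds for Pdk1, Ddit4, Adm, Egln3, Bnip3 and both Bhlhe40 probes, above them for P4ha2 and among them for Car9.

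Pdk1 encodes pyruvate dehydrogenase kinase 1, which switches off the entry of pyruvate into the mitochondrial citric acid cycle and is a classic HIF target. Its log2 ratio was -4.12 and -4.03 in MAPC, 0.47 and 0.17 in ESC, and 0.59 on the single NS array with a usable spot. The MAPC arrays lay far below all the others, and nothing overlapped. The background-subtracted sample signal was 110 and 115 in MAPC, against 5400 and 4105 in ESC and 4905 and 5671 in NS, where the first NS spot is the one marked as an outlier. The difference MAPC minus ESC was -4.40 ± 0.10 (SE, limma adjusted p = 2.77e-07), a 21.1-fold lower level in MAPC. Against NS it was -4.67 ± 0.13 (SE, limma adjusted p = 3.11e-07) with 1 NS array in the fit, a 25.5-fold lower level. Without background subtraction the differences were smaller, -3.19 and -3.47. ESC and NS did not differ by the test (-0.27, limma adjusted p = 0.153).

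Its paralogs, which act on the same enzyme complex, differed less and not all one way. Pdk2 was higher in MAPC by 0.35 than in ESC and by 0.61 than in NS (limma adjusted p = 0.00277 and 9.23e-05), although another Pdk2 probe gave 0.05 and 0.08. Pdk3 was higher by 0.17 than in ESC (limma adjusted p = 0.0367), a call lost under 10 of the 18 alternatives, and differed from NS by -0.02 without passing the test. Pdk4, known as the isoform of fasting and fatty acid use, was lower, with a difference of -0.70 against ESC and -0.49 against NS (limma adjusted p = 2.38e-05 and 1.37e-04). The Pdk4 signal in MAPC, 15.6 and 19.6, was below the brightest negative control spot of both arrays, and its difference ran from -1.43 to -0.18 against ESC and from -1.16 to -0.11 against NS over the alternatives.

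Ddit4 encodes REDD1, which restrains the growth kinase complex mTORC1 when oxygen or energy is short. Its log2 ratio was -3.56 and -3.64 in MAPC, 0.32 and -0.51 in ESC, and 1.51 and 1.49 in NS. The kinds did not overlap, MAPC being lowest and NS highest, and the ESC arrays were the most spread. The sample signal was 488 and 403 in MAPC, against 10107 and 4438 in ESC and 21669 and 24368 in NS. MAPC minus ESC was -3.50 ± 0.22 (SE, limma adjusted p = 9.08e-06) and MAPC minus NS was -5.10 ± 0.22 (SE, limma adjusted p = 7.85e-07), the difference from NS being a 34.4-fold lower level in MAPC. ESC minus NS was -1.60 (limma adjusted p = 0.000686), so that ESC were also below NS.

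Adm encodes adrenomedullin, a secreted peptide that widens blood vessels. Its log2 ratio was -3.48 and -3.29 in MAPC, -1.43 and -1.31 in ESC, and 1.59 and 1.61 in NS. The 3 kinds stood well apart from each other. The sample signal was 53.8 and 62.8 in MAPC, against 383 and 457 in ESC and 3883 and 4537 in NS. MAPC minus ESC was -2.02 ± 0.08 (SE, limma adjusted p = 5.99e-07), and -0.92 without background subtraction. MAPC minus NS was -4.98 ± 0.08 (SE, limma adjusted p = 7.27e-09), and -3.42 without background subtraction. ESC minus NS was -2.96, the largest ESC to NS difference among the 8 genes (limma adjusted p = 1.08e-07).

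Egln3 encodes a HIF prolyl hydroxylase that is itself raised by HIF, closing a feedback loop. It read -2.79 and -2.59 in MAPC, -0.29 and -0.94 in ESC, and 0.24 and 0.26 in NS. MAPC were below both others, and ESC below NS. MAPC minus ESC was -2.07 ± 0.18 (SE, limma adjusted p = 5.84e-05) and MAPC minus NS was -2.94 ± 0.18 (SE, limma adjusted p = 5.86e-06).

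Bnip3 encodes a protein of the outer mitochondrial membrane that takes mitochondria into autophagy. It read -1.26 and -1.39 in MAPC, -0.51 and -0.89 in ESC, and 0.20 and 0.11 in NS, again in the order MAPC, ESC, NS without overlap. MAPC minus ESC was -0.62 ± 0.12 (SE, limma adjusted p = 0.00395), a 1.54-fold difference. That call was lost when the background was not subtracted (-0.24, limma adjusted p = 0.0648) and also when only the sample channel was used (-0.50, limma adjusted p = 0.0700). Against NS the difference was larger, -1.48 ± 0.12 (SE, limma adjusted p = 2.43e-05), and it was -0.75 without background subtraction.

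Bhlhe40 encodes a transcriptional repressor that answers to low oxygen and also damps the circadian clock. Its brightest probe read -1.49 and -1.05 in MAPC, 0.35 and 0.05 in ESC, and 1.44 and 1.50 in NS. MAPC minus ESC was -1.47 ± 0.15 (SE, limma adjusted p = 0.000126) and MAPC minus NS was -2.74 ± 0.15 (SE, limma adjusted p = 2.64e-06). The second probe, assigned by the array's design to the same RefSeq transcript, read -0.18 and -0.19 in MAPC, -0.08 and 0.03 in ESC, and 0.10 and 0.02 in NS. It gave -0.15 for MAPC minus ESC (limma adjusted p = 0.0902) and -0.24 for MAPC minus NS (limma adjusted p = 0.0140), in the same direction but much smaller. The mean signal of the reference pool was 1988 on the brightest probe and 279 on the second. With the probes averaged, the differences were -0.81 against ESC and -1.49 against NS. The opening 30 bases of each 60-base probe, as the scanner files print them, are shown here because these probes gave such different sizes for 1 gene; the whole probes have a G and C content of 30.0% and 43.3%.
Bhlhe40 brightest probe: caaaggaaaatgtttcagatgtctatttgt
Bhlhe40 second probe: gaaggatctcctacccgaacatctcaaact

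Car9 encodes carbonic anhydrase 9, a membrane enzyme that controls acidity and is widely used as a mark of low oxygen in tumors. Its log2 ratio was -0.10 and 0.03 in MAPC, -0.16 and 0.01 in ESC, and -0.09 and 0.00 in NS. The groups overlapped, and the differences of MAPC were 0.04 ± 0.08 from ESC and 0.01 ± 0.08 from NS (SE, limma adjusted p = 0.719 and 0.946). The probe was above background on every array, with a sample signal of 469 and 692 in MAPC, against 584 and 847 in ESC and 629 and 632 in NS.

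P4ha2 encodes a catalytic subunit of collagen prolyl 4-hydroxylase, an oxygen-using enzyme of the endoplasmic reticulum that stabilises the collagen helix. It was the member that was higher in MAPC. Its log2 ratio was 1.79 on both MAPC arrays, -0.99 and -0.84 in ESC, and -0.82 and -0.73 in NS. The sample signal was 10083 and 9601 in MAPC, against 783 and 1134 in ESC and 1014 and 1382 in NS. MAPC minus ESC was 2.71 ± 0.07 (SE, limma adjusted p = 8.87e-08), a 6.53-fold difference, and MAPC minus NS was 2.57 ± 0.07 (SE, limma adjusted p = 6.60e-08), a 5.93-fold difference. ESC and NS did not differ by the test (-0.14, limma adjusted p = 0.167).

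**Figure D2:**
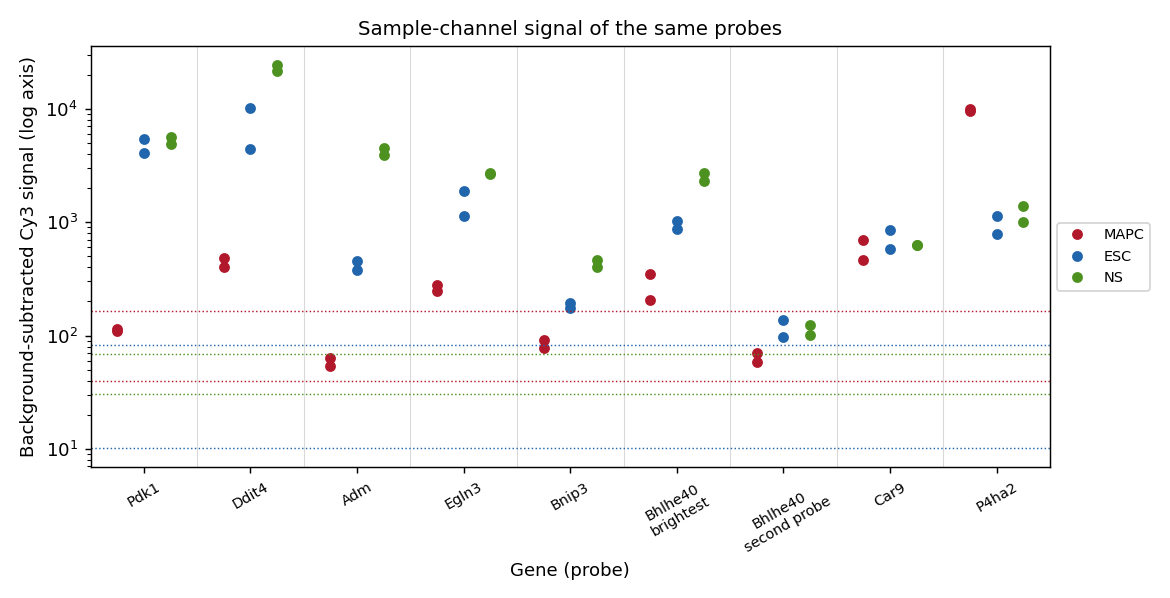
Background-subtracted Cy3 signal of the sample (vertical log axis, arbitrary scanner units) for each member probe (horizontal axis) on every array, with MAPC left of ESC and NS. Dotted lines mark the brightest negative control spot of each array in the colour of its group; on 1 MAPC array that line, at 165, lies above the MAPC points of Pdk1, Adm, Bnip3 and the second Bhlhe40 probe, while the P4ha2 points of MAPC are at 9601 and 10083.

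All 9 member probes were well above background on all 6 arrays by the scanner software's own mark, and none was saturated. That mark is lenient, since 91.9% to 99.6% of the probe spots of an array carried it. On the second MAPC array, Pdk1, Adm, Bnip3 and the second Bhlhe40 probe were dimmer than the brightest of 314 negative control spots, at 165, though brighter than 99.7% of them. On the first MAPC array the brightest such spot was at 39.9, below every member. For Pdk1, Adm and Bnip3 the MAPC signals thus lay near the floor of an array, and their differences were smaller without background subtraction. The replicate number coincided with the day on which the image was extracted, per the file headers. Taken within the second day alone, MAPC minus ESC was -4.20 for Pdk1, -3.13 for Ddit4, -1.98 for Adm, -1.65 for Egln3, -0.50 for Bnip3, -1.09 for Bhlhe40 and 2.63 for P4ha2. Within the first day the same differences were -4.59, -3.88, -2.05, -2.50, -0.74, -1.84 and 2.79 in that order of genes. Against NS the within-day differences of the lower genes with both days measured ran from -1.45 for Bnip3 on the first day to -5.13 for Ddit4 on the second. P4ha2 was at 2.62 and 2.52 against NS, and Pdk1 had only the second day, at -4.62. Car9 was at 0.06 on the first day and 0.03 on the second against ESC, and at -0.01 and 0.03 against NS.

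In order of level, Pdk1, Ddit4, Adm, Egln3, Bnip3 and Bhlhe40 were lowest in MAPC, then ESC, then NS. The step between ESC and NS passed the test for all of these but Pdk1. For Bhlhe40 this order is that of the brightest probe. On the second Bhlhe40 probe ESC and NS overlapped and the step did not pass (-0.09, limma adjusted p = 0.339). P4ha2 was highest in MAPC, with ESC and NS not separated by the test, and no order could be given for Car9. Between ESC and NS, 5 of the 8 genes passed, all lower in ESC, beside 38.7% of all probes (20.4% higher and 18.3% lower). The share among named genes, which was above that of all probes in both MAPC contrasts, is not given here for ESC minus NS. The median over the 8 genes was -0.86 for ESC minus NS. The culture kept at 5% oxygen thus had the lowest level of 6 of these transcripts and the highest level of P4ha2, and as a group the genes were not high in it. How many of all genes were lowest or highest in MAPC was not counted, so this describes the members only. In RNA from bulk cultures, fewer cells expressing a gene and less RNA per cell cannot be told apart.

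The stretch upstream of the genes was examined for the HIF core, because the members are known as HIF targets and 6 of them moved one way and P4ha2 the other. Windows of 250 bases before the transcript start were taken from RefSeq (build GRCm38.p6) and searched for ACGTG and GCGTG on both strands, with the palindrome CACGTG counted once. Of the 10 genes, 8 matched the table (Vegfa among them, Bhlhe40 and Ndrg1 not), in 10 windows, since Pdk1 and Vegfa have a pair of starts each. A core stood in 8 of the 10 windows, where 38.6% of 32851 windows held one. The second Pdk1 window and the first Vegfa window held none. The Vegfa window with cores, chr17:46025164-46025413 on the minus strand, lies downstream of the first Vegfa start, whose window is chr17:46032378-46032627. Vegfa itself was not measured. The genes were picked as known HIF targets, so the share of windows with a core is no test of them. Among the measured genes, at the start listed first, the windows of Pdk1, Egln3 and Car9 held 1 core, those of Ddit4 and Adm 2, that of P4ha2 3 and that of Bnip3 4, and 4.87% of all windows held 3 or more. Among the measured genes with a window, those lower in MAPC, P4ha2 and the uncalled Car9 all carried the letters. Bhlhe40, also lower in MAPC, could not be searched. A match describes these letters and is no evidence that a factor was bound. The windows are shown for the pair of genes lowest in MAPC against ESC, for Adm, lowest against NS after Ddit4, and for P4ha2, with cores in capitals and written 5′ to 3′ on the strand of the gene. The Pdk1 window is chr2:71872974-71873223 on the plus strand, the Ddit4 window chr10:59951771-59952020 on the minus strand, the Adm window chr7:110627407-110627656 on the plus strand and the P4ha2 window chr11:54100674-54100923 on the plus strand. The core of Pdk1 lies 77 bases upstream of the start, those of Ddit4 at 186 and 114, those of Adm at 88 and 52, and those of P4ha2 at 105, 77 and 68.
Pdk1: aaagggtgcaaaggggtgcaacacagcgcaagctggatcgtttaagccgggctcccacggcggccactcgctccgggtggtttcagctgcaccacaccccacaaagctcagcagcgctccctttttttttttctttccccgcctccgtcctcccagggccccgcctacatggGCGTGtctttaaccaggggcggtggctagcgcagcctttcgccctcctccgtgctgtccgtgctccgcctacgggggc
Ddit4: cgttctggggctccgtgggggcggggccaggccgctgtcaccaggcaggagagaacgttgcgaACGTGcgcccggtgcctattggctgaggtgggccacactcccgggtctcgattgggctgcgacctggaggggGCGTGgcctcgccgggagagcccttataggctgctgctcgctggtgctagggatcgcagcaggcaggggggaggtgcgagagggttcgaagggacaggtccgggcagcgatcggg
Adm: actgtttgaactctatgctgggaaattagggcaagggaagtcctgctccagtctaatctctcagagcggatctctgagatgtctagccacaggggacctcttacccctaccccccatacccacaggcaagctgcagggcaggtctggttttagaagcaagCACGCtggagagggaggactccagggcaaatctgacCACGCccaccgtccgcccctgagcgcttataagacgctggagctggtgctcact
P4ha2: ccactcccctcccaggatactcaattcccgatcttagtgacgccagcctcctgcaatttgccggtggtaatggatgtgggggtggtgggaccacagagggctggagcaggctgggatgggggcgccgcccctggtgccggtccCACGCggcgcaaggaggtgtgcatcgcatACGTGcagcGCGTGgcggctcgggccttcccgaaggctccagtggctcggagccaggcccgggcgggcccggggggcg

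**Figure D3:**
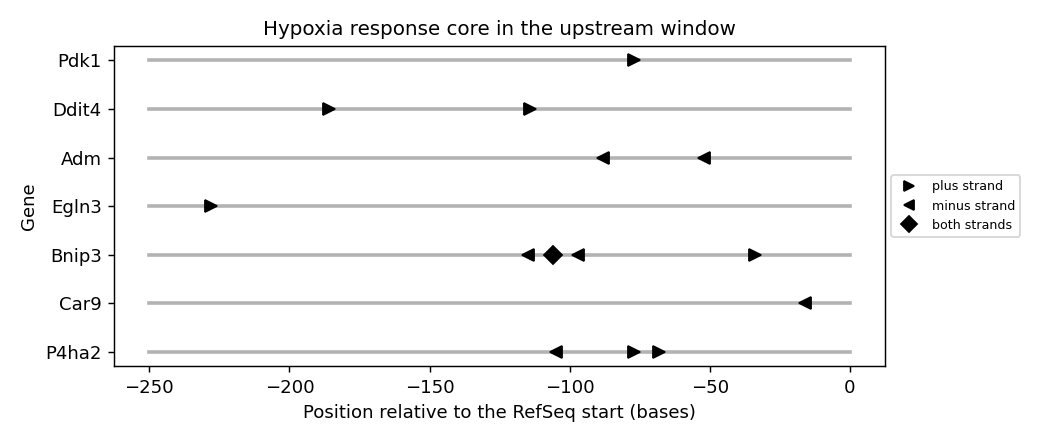
Position of each ACGTG or GCGTG core (horizontal axis, bases relative to the RefSeq transcript start) in the 250-base upstream window of 7 measured genes (vertical axis); triangles point along the strand that carries the core and the diamond marks a core on both strands. Bnip3 has 4 cores and P4ha2 has 3, while Pdk1, Egln3 and Car9 have 1 each.

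Genes that act with the members were counted in 9 lists of 118 genes, 99 of them measured, none of which is a member. For MAPC minus ESC, 28 of the 99 were higher and 43 lower, and for MAPC minus NS 25 were higher and 54 lower. The shares called, 71.7% and 79.8%, stood beside 50.4% (21.1% higher and 29.3% lower) and 55.1% (28.8% higher and 26.3% lower) of all named genes. The median difference was -0.07 against ESC and -0.23 against NS. Between ESC and NS the lists leaned down as well: 46 genes passed as lower in ESC and 24 as higher, and the median was -0.15. For the genes of these lists, a pair of values given without levels is the log2 difference MAPC minus ESC and then MAPC minus NS, and a negative value means lower in MAPC. Several list genes were dim in MAPC, under the brightest negative control spot of an array, and the size of their differences moved with the processing.

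Of 10 genes for oxygen sensors and HIF subunits, 6 were measured, and 4 were higher and none lower in MAPC than in ESC, with a median of 0.28. Against NS 4 were higher and 1, Egln1, was lower. The 4 higher against NS became 2 without MAPC replicate 1 and 1 without NS replicate 1, and with only the sample channel 2 were higher in either contrast. Hif1a, the oxygen-labile HIF subunit, read 1.06 and 0.83 in MAPC, 0.28 and 0.45 in ESC, and 0.21 and 0.22 in NS. It was higher in MAPC by 0.58 than in ESC and by 0.73 than in NS (limma adjusted p = 0.00122 and 0.000277). Epas1, which encodes HIF-2 alpha, was higher by 0.35 and 0.25 (limma adjusted p = 0.00255 and 0.0109), but these calls were not stable. With only the sample channel its difference from NS turned to -0.15 without passing the test, and its call against ESC was lost (limma adjusted p = 0.330). The call against NS was also lost without MAPC replicate 1 (limma adjusted p = 0.0648) and without NS replicate 1 (limma adjusted p = 0.0701). Egln1, the main HIF prolyl hydroxylase in most cells, was higher by 0.37 than in ESC and lower, with a difference of -1.74 against NS (limma adjusted p = 0.00274 and 3.74e-07). Egln2 was higher by 0.21 and 0.19 (limma adjusted p = 0.0326 and 0.0413), calls that were lost under 11 and 9 of the 18 alternatives. Another Egln2 probe gave 0.38 and 0.42 (limma adjusted p = 0.00254 and 0.00125). Arnt, Vhl, Hif1an and Cited2 are not analysed here.

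Genes of glucose uptake and glycolysis were more often lower than higher. Of 18 measured, 3 were higher and 11 lower in MAPC than in ESC, and 3 were higher and 13 lower than in NS, with medians of -0.35 and -0.89. In the sample channel alone the count of lower genes against ESC was 7. ESC leaned down against NS too: 11 glycolysis genes passed as lower in ESC and 4 as higher, and the list median was -0.41. The lean against NS was thus not particular to MAPC. Pfkp, the platelet isoform of phosphofructokinase, read -3.59 and -3.51 in MAPC, 0.03 and -0.28 in ESC, and -0.40 and -0.50 in NS. It was lower, with a difference of -3.43 against ESC and -3.10 against NS (limma adjusted p = 1.73e-07 and 1.61e-07). The muscle isoform Pfkm was lower, with a difference of -2.30 and -3.44, although another Pfkm probe gave -0.12 and -0.22. Slc16a3, which exports lactate, was lower, with a difference of -2.24 and -2.69 (limma adjusted p = 5.56e-06 and 1.36e-06), and Pfkfb3, which makes the activator of phosphofructokinase, was lower, with a difference of -0.93 and -2.44. With only the sample channel the Pfkfb3 call against ESC was lost (-0.65, limma adjusted p = 0.0570), and without background subtraction its differences were -0.36 and -1.34. Slc2a1, the glucose transporter GLUT1, was lower, with a difference of -1.01 against ESC (limma adjusted p = 0.000447) and did not pass against NS (-0.20). Slc2a3, which encodes the transporter GLUT3, was among the genes higher in MAPC, by 0.25 than in ESC and 1.12 than in NS; it was named after its values were seen. MAPC medium is described as low in glucose and ESC medium as high, a difference in culture whose part in these values was not tested.

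**Figure D4:**
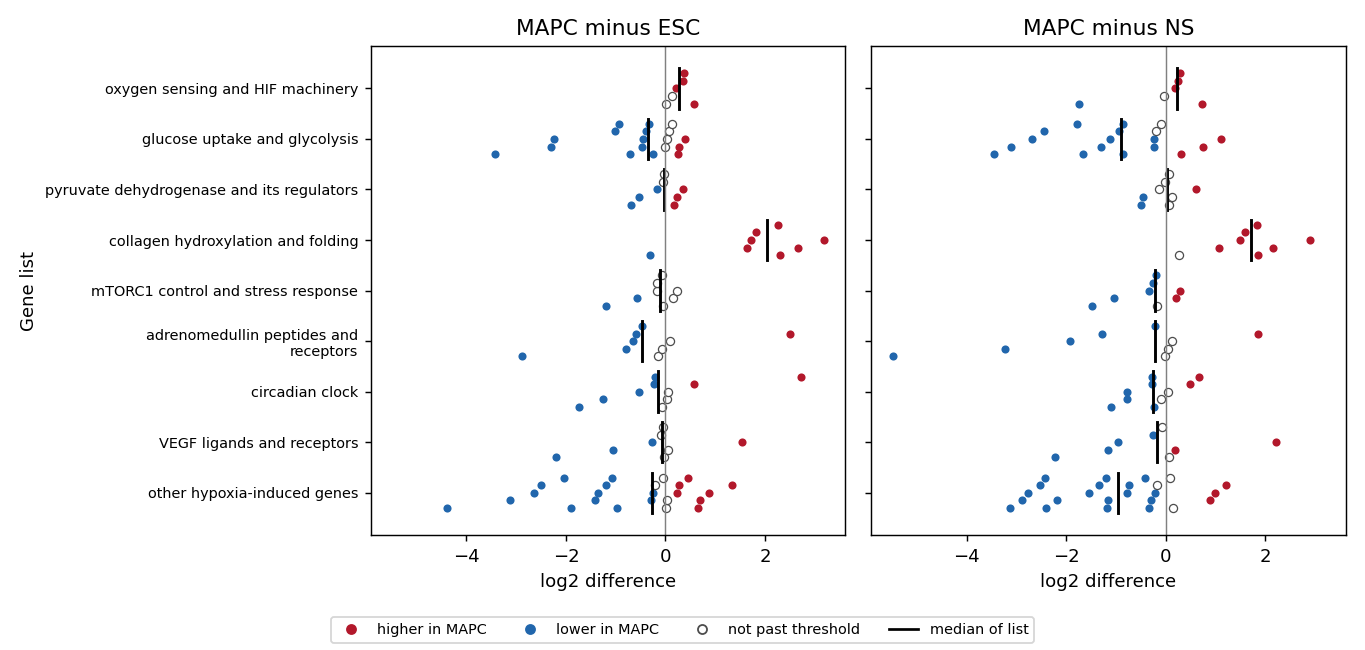
Log2 difference (horizontal axis) of each measured gene of the 9 lists (vertical axis), for MAPC minus ESC on the left and MAPC minus NS on the right. Red points passed the threshold as higher in MAPC, blue points as lower, open points did not pass, and black bars are list medians; the collagen list has medians of 2.04 and 1.71, and the glycolysis list of -0.35 and -0.89.

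Genes of collagen hydroxylation and folding were mostly higher in MAPC, as P4ha2 was. Of its 8 genes, all measured, 7 were higher in MAPC than in ESC and 1 lower, and 7 were higher than in NS with 1 not called; the medians were 2.04 and 1.71. Plod2, a lysyl hydroxylase of collagen crosslinks and also a known HIF target, read 2.75 and 2.89 in MAPC, -0.36 and -0.35 in ESC, and 1.28 and 1.36 in NS. It was higher by 3.18 than in ESC and by 1.50 than in NS (limma adjusted p = 3.53e-08 and 7.31e-07). Serpinh1, the collagen chaperone HSP47, was higher by 2.65 and 1.86, P3h1, a prolyl 3-hydroxylase, by 2.30 and 2.90, and Plod3 by 2.27 and 2.15. P4ha1, the paralog of P4ha2 that is also known to respond to HIF, was higher by 1.82 and 1.07 (limma adjusted p = 1.84e-07 and 1.70e-06), and P4hb, the shared beta subunit, by 1.71 and 1.84. The remaining paralog P4ha3 was at -0.31 against ESC (limma adjusted p = 0.0406), a call lost under 7 of the alternatives, and did not pass against NS (0.27). The fibrillar collagens on the fibroblast marker list did not share this: Col1a1 read -2.25 and -2.11 in MAPC, 0.17 and 0.21 in ESC, and -1.96 and -1.97 in NS, and Col1a2 was lower in MAPC too, with differences of -2.20 and -0.32; these genes were picked after their values were seen.

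Among partners of Ddit4 in the control of mTORC1 and the stress response, 8 of 13 genes were measured. Of these 8 measured, none was higher and 2 were lower in MAPC than in ESC, while 2 were higher and 5 lower than in NS, with medians of -0.12 and -0.22. Txnip, a glucose-responsive inhibitor of glucose uptake, was lower, with a difference of -1.20 against ESC and higher by 0.29 than in NS. The sestrins, which also restrain mTORC1, were lower against NS, Sesn2 at -1.05 and Sesn3 at -1.47. With only the sample channel the Txnip call against NS was lost (limma adjusted p = 0.0813), and 2 genes were lower and none higher against NS. The 5 lower genes became 3 without MAPC replicate 2, NS replicate 1 or NS replicate 2. The 2 higher genes became 1 without MAPC replicate 1, NS replicate 1 or NS replicate 2, and without ESC replicate 1 a gene was called higher against ESC.

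The adrenomedullin system was mixed. Of 9 genes, all measured, 1 was higher and 5 were lower in MAPC than in ESC, and 1 was higher and 5 were lower than in NS. Calcrl, the receptor's core, read -1.05 and -1.04 in MAPC, -0.47 and -0.45 in ESC, and 2.30 and 2.07 in NS. Its partner Ramp1, which makes a receptor for a related peptide, was lower, with a difference of -0.66 against ESC and -5.49 against NS. With only the sample channel its call against ESC was lost (-0.41, limma adjusted p = 0.0744), and over the alternatives its difference ran from -1.60 to -0.14 against ESC and from -7.11 to -3.64 against NS. Ramp2, which turns the same core into an adrenomedullin receptor, was the higher gene (limma adjusted p = 7.15e-08 and 1.70e-07). Ramp2 read 2.79 and 2.92 in MAPC, 0.36 and 0.35 in ESC, and 0.98 and 1.00 in NS. Ramp3, also on the list, was lower, with a difference of -0.80 against ESC (limma adjusted p = 2.88e-05), and did not pass against NS (0.13). Ackr3, a decoy receptor for adrenomedullin and CXCL12, was lower, with a difference of -2.89 and -1.92, which over the alternatives ran from -4.35 to -1.21 and from -3.29 to -0.61. The MAPC signals of Calcrl, Ramp1 and Ackr3, from 11.7 to 20.4, were below the brightest negative control spot of both MAPC arrays. With only the sample channel, 3 genes of the list were lower against ESC.

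Beside Bhlhe40, the clock list had 10 of 11 genes measured, 2 higher and 5 lower against ESC and 2 higher and 6 lower against NS. Per2 was higher in MAPC by 2.73 than in ESC and by 0.67 than in NS, and Nr1d2 was lower, with a difference of -1.74 and -1.09. Cry1 was lower, with a difference of -1.25 and -0.77. For all 3 of these genes another probe gave a difference within 0.1 of 0, so their sizes rest on the brighter probe. The 5 clock genes lower against ESC became 3 without MAPC replicate 1 or ESC replicate 1, and with only the sample channel 3 were lower in either contrast. Nr1d2 ran from -2.32 to -0.74 and from -1.60 to -0.40 over the alternatives. In the list of VEGF ligands and receptors, 8 of 9 genes were measured, 1 higher and 3 lower against ESC and 2 higher and 4 lower against NS. Vegfc was lower, with a difference of -2.20 and -1.16, Vegfb was lower, with a difference of -1.06 and -2.23, and the receptor gene Flt1 was higher by 1.55 and 2.21. Vegfc ran from -2.73 to -1.11 and from -1.61 to -0.46 over the alternatives. The 2 genes higher against NS became 1 on leaving out either MAPC array or either NS array. In the list of pyruvate dehydrogenase and its regulators, which holds the Pdk1 paralogs, 8 of 10 genes were measured, 3 higher and 3 lower against ESC and 1 higher and 2 lower against NS.

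Other genes known to be raised by low oxygen were more often lower than higher in MAPC. Of 24 measured out of 28, 7 were higher and 13 lower in MAPC than in ESC, and 3 were higher and 18 lower than in NS, with medians of -0.27 and -0.97. Among all named genes, 21.1% were higher and 29.3% lower against ESC, and 28.8% were higher and 26.3% lower against NS. ESC minus NS also leaned down in this list, with 6 higher and 16 lower in ESC and a median of -0.53. Against NS the genes lowest in MAPC were Fam162a (-3.12), a mitochondrial protein, Tfrc (-2.89), the transferrin receptor, Ier3 (-2.76) and the metallothionein gene Mt1 (-2.53). Against ESC, Lox (-3.13), Angptl4 (-2.65) and Tfrc (-2.51) were among the lowest. The 7 genes higher than in ESC included Car12 (1.33), Wsb1 (0.88), Ero1a (0.69) and Hilpda (0.66). The 3 higher than in NS were Hmox1 (1.22), Car12 (0.98) and Edn1 (0.89). These higher genes were named after their values were seen. Lox, a collagen crosslinking oxidase, was highest in ESC and read -4.30 and -4.22 in MAPC, -1.22 and -1.04 in ESC, and -4.01 and -4.07 in NS. The difference of Lox from ESC ran from -4.47 to -1.42 over the alternatives, and its MAPC signal, 21.3 and 26.3, was below the brightest negative control spot of both arrays. Another probe of Angptl4 gave -0.22 against ESC. Wsb1 was counted as lower against NS by its brightest probe (-0.34, limma adjusted p = 0.00486). Another Wsb1 probe went the other way there (0.60, limma adjusted p = 9.34e-05). ESC also had the highest fibroblast marker signal, summed over 5 measured markers of 7: 995 and 886 in MAPC, against 16512 and 14893 in ESC and 7042 and 7999 in NS, and 4 of the 5 were lower in MAPC than in ESC. Postn, 1 of the 5, was on neither MAPC array well above background, while the other measured markers were so on both. The part of feeder cells in the ESC values was not tested.

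Markers of the labelled cell kinds were set beside these values. Pou5f1, which encodes Oct4, read 0.90 and 1.33 in MAPC, 3.38 and 2.90 in ESC, and -0.25 and -0.29 in NS. The summed signal of 7 ESC markers was 1025 and 1090 in MAPC, against 19717 and 20339 in ESC and 13463 and 16915 in NS; the list holds Sox2, which neural cells share. The summed signal of 7 neural progenitor markers was 271 and 324 in MAPC, against 9979 and 10710 in ESC and 90119 and 95591 in NS, and Sox2 is on this list as well. Dppa3, an ESC marker, was not well above background in MAPC. Blood cell markers, 4 measured of 7, summed to 277 and 345 in MAPC, against 1562 and 1886 in ESC and 385 and 434 in NS, and none was called higher in MAPC, though without NS replicate 1 a marker was in each contrast and without NS replicate 2 against ESC. The part of such differences in cell type in the values of the hypoxia genes was not tested.

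Likeness to other genes was measured as the root mean square distance between log2 ratios, each profile centred on its own mean, over the 6 arrays (5 for Pdk1) and 11948 named genes. The genes nearest to Pdk1 were Dpysl3 (0.27), Sap30 (0.30) and Cbx6 (0.33), and those nearest to Ddit4 were Itm2a (0.24), Tmem131l (0.27) and Mark1 (0.30). For Adm they were Mgst1 (0.20), Psd3 (0.22) and Bmp7 (0.23). P4ha2 had closer neighbours, Ephb3 (0.09), Pwwp3b (0.09) and Colgalt1 (0.10), of which Colgalt1 encodes a collagen galactosyltransferase. Bhlhe40 was nearest to Igsf8 (0.13), Mapk11 (0.13) and Tnfaip8 (0.13). The distances describe 3 kinds of cell and carry no test.

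**Figure D5:**
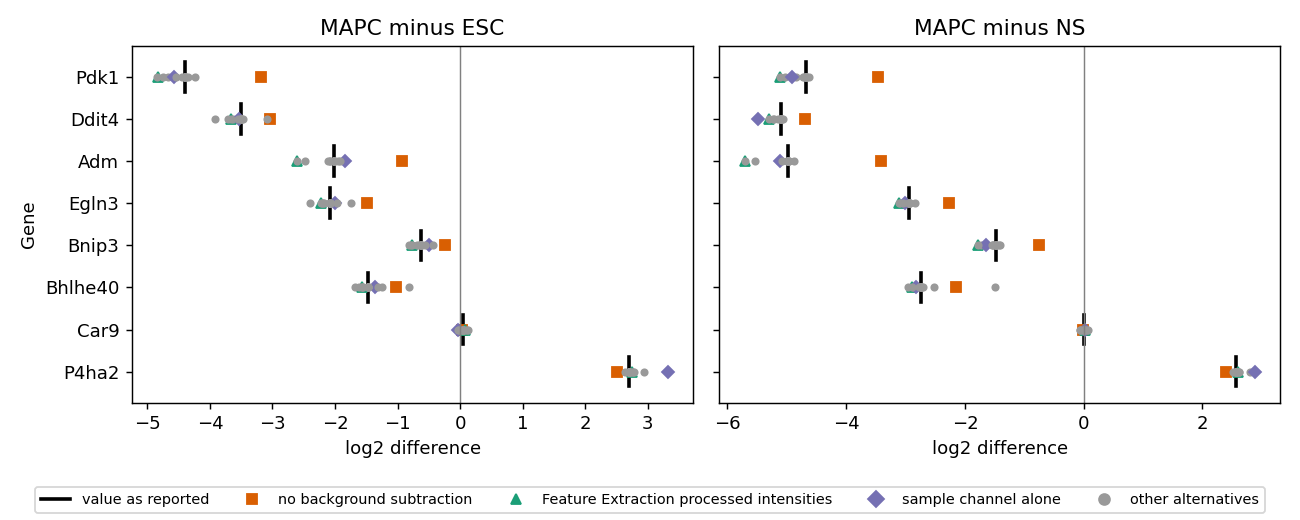
Log2 difference (horizontal axis) of each member gene (vertical axis) under the reported processing (black bars) and under each alternative (symbols), for MAPC minus ESC on the left and MAPC minus NS on the right. Every symbol keeps the sign of its bar for the 7 genes that were called; the values without background subtraction lie nearest to 0 for Pdk1 and Adm, at -3.19 and -0.92 for MAPC minus ESC.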

How the data were processed

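The 6 scanner files hold, per the file headers, Cy3 (sample) and Cy5 (reference) mean spot and local background intensity read by Agilent Feature Extraction A.7.5.1, and the authors deposited the software's processed intensity as well. The deposited series matrix is in log10 units (column medians 2.95 to 2.97); the sources used here do not give its rule, and its differences between arrays matched the processed intensities with r from 0.979 to 0.986. It served as an alternative, with its centring unknown.

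Intensities were background-corrected with normexp (offset 50) and loess-normalized within each array in limma (3.58.1, R 4.3.3; the package data.table, version 1.17.8, read the files). Control and outlier spots were left out and spots of a probe averaged. Probes that both arrays of at least 1 kind showed well above background with Cy3, 39403 in all, entered a single fit of the 6 arrays (3 residual degrees of freedom). Tests were two-sided, p-values were Benjamini-Hochberg adjusted within a contrast over all probes, and errors are moderated SE. With 2 arrays a group no permutation test can reach 0.05. The fit was tested on simulated data. Probes were named through RefSeq accession (15294), symbol (15) or older symbol (72), and 25625 stayed unnamed; a gene was called by its brightest probe. The number of per-sample columns that no sample could be given was 0.

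Named genes were all members, HIF and EGLN genes, the paralogs of Pdk1 and P4ha2, up to 4 genes per list and MAPC contrast (called, at least 2-fold, same direction in both replicate numbers) and the 3 nearest profiles of 5 members; 1 gene that the rule names is not reported here. The members and lists were chosen with earlier results of these data known. Alternatives were other background corrections, normalizations, probe rules and filters, the sample channel alone, the series matrix, only the groups compared, a replicate block and leaving out each array.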

Additional observations from a re-analysis of the deposited data

How the results depend on the processing

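Each result was recomputed under 18 alternatives, 6 of which leave out 1 array. P4ha2, Pdk1, Ddit4, Adm, Egln3 and Bhlhe40 kept their direction and call in both MAPC contrasts under all that gave a value; Pdk1 against NS could not be fitted without NS replicate 2, where 5 members were lower. Without ESC replicate 1, Pdk1 passed for ESC minus NS (-0.42, limma adjusted p = 0.0129), so that 6 members were lower there. The second Bhlhe40 probe lost its call against NS without MAPC replicate 1, MAPC replicate 2 or NS replicate 1 (limma adjusted p = 0.0517, 0.0610 and 0.0948) and with only the sample channel (limma adjusted p = 0.182). With only the sample channel, MAPC minus ESC called 9828 probes in place of 15161, and Epas1 turned to -0.15 for MAPC minus NS. Leaving out 1 array gave 12804 to 14277 calls for MAPC minus ESC. Replicate numbers coincide with the day of image extraction and did not clearly pair the arrays (correlations of 0.0944, 0.156 and 0.208 between kinds); with the replicate block, 15781 probes were called for MAPC minus ESC (15161 without it), 18122 for MAPC minus NS (17416) and 15743 for ESC minus NS (15230), and of the single genes named only P4ha3 against NS changed sides (0.27, limma adjusted p = 0.0437). Over all results and alternatives, 2470 kept their side, 101 lost the threshold, 10 gained it and 1 reversed. The causes were not tested.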
